A study of Mus musculus with 6 samples.

Results

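Nodal signalling was examined in undifferentiated mouse embryonic stem (ES) cells through 9 genes: the ligands Nodal and Gdf3, the coreceptor Tdgf1 (Cripto), the receptor Acvr2b, the secreted antagonists Lefty1, Lefty2, Cer1 and Fst, and the intracellular inhibitor Smad7. A probe set was taken when the platform's annotation gave it 1 gene symbol and that symbol was one of these genes. This found 9 probe sets, 1 for each gene, among 35557 on the array and 19938 named genes, and all 9 passed the filter on low values. The tested cells were clone Cl34, a Hira-/- ES cell line called Hira-null here, and they were set against the parental wild-type ES cell line w9.5 (WT), with 3 Affymetrix Mouse Gene 1.0 ST arrays for each line. Cells of both lines were kept in the same medium, with ES-qualified fetal calf serum and ESGRO, a leukaemia inhibitory factor supplement, and the labels name no feeder layer. HIRA is a chaperone that places the histone variant H3.3 on DNA outside replication. Because Cl34 is the 1 Hira-null clone studied, loss of Hira and any other way in which it differs from w9.5 cannot be told apart. Cultures were harvested at several confluences according to the design text, and the confluence behind each array is not labelled.

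Nodal is a secreted growth factor of the TGF-beta family that signals through activin receptors together with a coreceptor such as Cripto. The receptors activate SMAD2 and SMAD3, which enter the nucleus with SMAD4 and act with the partner FOXH1. Among the genes they switch on are Lefty1 and Lefty2, whose proteins block the ligand and its coreceptor, so that the pathway feeds back on itself. In the early mouse embryo it maintains the epiblast and patterns the body axes, and ES cells express many of its components.

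Every level below is a deposited log2 value, in which 1 unit is a doubling, and every difference is Hira-null minus WT with the standard error (SE) and 95% interval from limma. The Hira probe set averaged 7.09 ± 0.30 in Hira-null arrays and 7.73 ± 0.21 in WT arrays (SD, n = 3 each), without overlap, and its difference of -0.64 did not pass the test (limma adjusted p = 0.352). Which exons the deletion removed is not labelled, so this probe set is an uncertain check of the genotype. Hira-null replicate 3 stood apart from all other arrays. It lay at 65.6 on principal component 1, which held 41.7% of the variance, against -32.0 to 1.95 for the other 5 arrays. Member results are therefore given with and without it. The replicates are labelled biological with no further detail on cultures, so the spread behind each p-value may be technical in part. The members' results rest on bulk RNA, in which fewer cells of a type and less RNA per cell cannot be told apart.

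None of the 9 genes passed the test (limma, adjusted p from 0.508 to 0.997), and 0 of 9 had an unadjusted p under 0.05. Of 25142 probe sets tested, 0.00398% passed and 10.1% had an unadjusted p under 0.05. The 2 Lefty genes had the widest differences of the set. They were also the only 2 of the 9 whose levels did not overlap between the lines, as was found for 15.3% of all probe sets. For the other 7 genes the lines overlapped. The median difference over the 9 genes was 0.00, as it was over all probe sets tested.

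Lefty1 encodes a secreted antagonist that lacks signalling activity of its own and marks the left side and the anterior visceral endoderm of the embryo. Its probe set read 7.44, 7.30 and 5.08 in Hira-null arrays, against 8.07, 7.92 and 7.86 in WT arrays. All 3 Hira-null arrays were below all 3 WT arrays, and most of the distance came from Hira-null replicate 3. The means were 6.61 ± 1.32 in Hira-null arrays and 7.95 ± 0.11 in WT arrays (SD, n = 3 each). The difference was -1.34 (SE 0.59, 95% interval -2.74 to 0.05), or 2.54-fold lower, and did not pass (limma adjusted p = 0.508). Without Hira-null replicate 3 it was -0.58, or 1.49-fold lower, and the 2 remaining Hira-null arrays were still below the WT arrays (limma adjusted p = 0.324).

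Lefty2, the close paralog of Lefty1 and separated from it on chromosome 1 by 1 protein-coding gene, gave nearly the same picture. Its probe set read 7.55, 7.69 and 5.09 in Hira-null arrays, against 7.84, 8.25 and 8.11 in WT arrays. Again every Hira-null array was below every WT array, with replicate 3 far below the others. The means were 6.78 ± 1.46 in Hira-null arrays and 8.07 ± 0.21 in WT arrays (SD, n = 3 each), a difference of -1.29 (SE 0.65, 95% interval -2.84 to 0.26, limma adjusted p = 0.576), or 2.45-fold lower. Without Hira-null replicate 3 it was -0.45, or 1.36-fold lower (limma adjusted p = 0.465). An exact two-sided permutation test gave p = 0.100 for each Lefty gene, the smallest that 3 arrays against 3 allow. Lower levels without overlap were found for 2 of the 9 genes and for 8.17% of all probe sets. With Hira-null replicate 3 left out, the same count was 2 of 9, and the share of all probe sets was 13.1%. Probe sequences were not analysed here, so signal that Lefty1 and Lefty2 transcripts share could not be separated, and the agreement of the probe sets is not independent evidence.

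**Figure D1:**
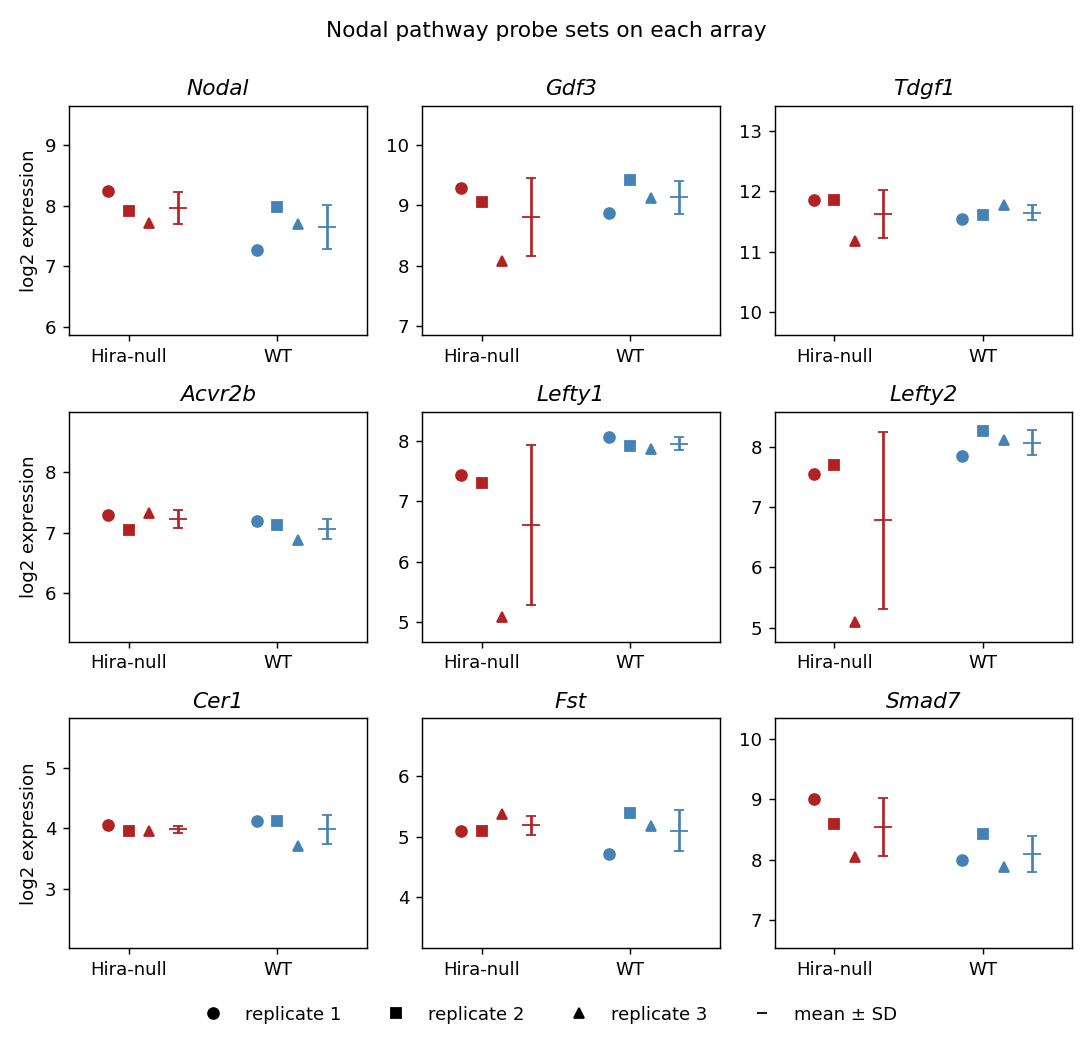
Log2 expression (vertical axes, each spanning the same number of units) of the 9 Nodal pathway probe sets in 3 Hira-null arrays (left, red) and 3 WT arrays (right, blue), with each replicate as its own symbol and the mean ± SD beside them. Lefty1 and Lefty2 are the panels in which the lines do not overlap, and Hira-null replicate 3 (triangle) lies at 5.08 and 5.09 there, whereas the other arrays of both lines lie above 7.

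The drop of both Lefty genes in Hira-null replicate 3 was among the widest on that array. Against the mean of the other 5 arrays, Lefty2 was at -2.80 (6.95-fold lower), the 5th lowest value of 25142 probe sets, and Lefty1 was at -2.64 (6.22-fold lower), the 12th lowest. Only 68 probe sets (0.270%) lay below -2 in this comparison, in which the median of all probe sets was -0.02. These ranks describe 1 array and carry no test. Many of these probe sets were unnamed or shared 1 gene symbol, Srsy, the lowest with that symbol at -2.63. Among the other named genes in that range were the growth regulators Mycn (-3.07) and Myc (-2.74), and also Aldoc (-2.77). All 3 were picked out after their values were seen. Myc was also low in WT replicate 1, at 5.42, against 8.35 and 7.11 in the other WT arrays, whereas Lefty1 was at 8.07 and Lefty2 at 7.84 there. Mycn was low in Hira-null replicate 3 alone, with 8.92, 8.78 and 5.85 in Hira-null arrays and 8.68, 9.29 and 8.94 in WT arrays. Its Hira-null replicates 1 and 2 lay within the WT range, whereas those of both Lefty genes lay below it.

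The remaining members spread less on this array. Gdf3 stood at -1.07 against the mean of the other 5 arrays, Tdgf1 at -0.56, Smad7 at -0.34, Nodal at -0.10 and Cer1 at -0.04. Acvr2b (0.21) and Fst (0.27) were above that mean. Hira-null replicate 3 was the lowest of the 6 arrays for 4 of the 9 genes, namely Lefty1, Lefty2, Gdf3 and Tdgf1, and for 25.7% of all probe sets. Nodal read 7.72 on that array, within the WT range. Signalling was not measured, and whether the levels of these genes bear on the Lefty drop was not tested.

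**Figure D2:**
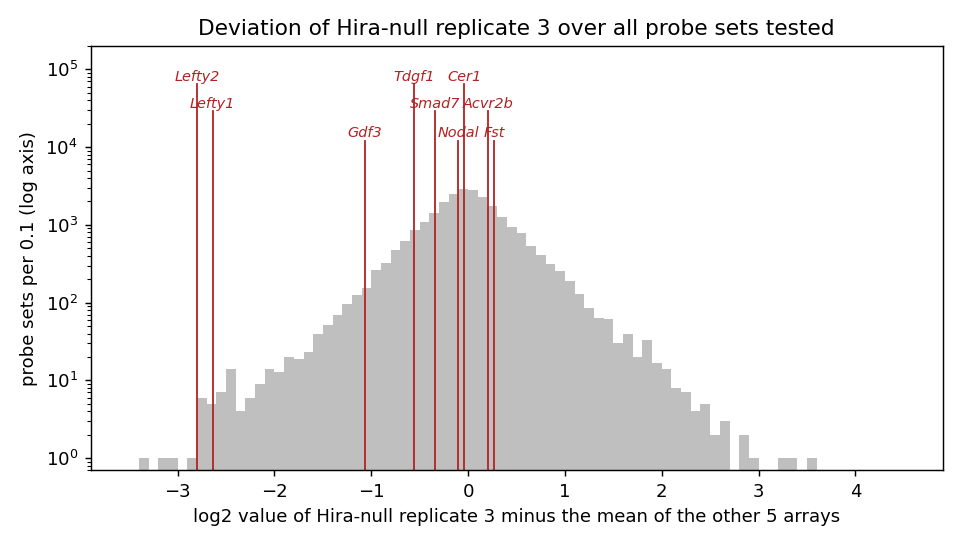
Number of probe sets (log axis) by the log2 value of Hira-null replicate 3 minus the mean of the other 5 arrays, over 25142 probe sets (grey bars), with the 9 Nodal pathway genes marked by red lines. Lefty2 at -2.80 and Lefty1 at -2.64 lie in the lower tail, Gdf3 at -1.07 is next, and the other 6 lie between -0.56 and 0.27.

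Lefty1 and Lefty2 varied widely among Hira-null arrays, and among WT arrays Lefty1 varied little and Lefty2 to an ordinary degree. The SD of Lefty1 in Hira-null arrays was larger than that of 99.6% of probe sets, whereas in WT arrays it was larger than that of 27.6%. For Lefty2 these shares were 99.8% in Hira-null arrays and 60.4% in WT arrays. The lines were not tested for a difference in spread. The gap between the probe sets, Lefty1 minus Lefty2, was -0.11, -0.39 and -0.01 in Hira-null arrays and 0.23, -0.33 and -0.25 in WT arrays, so both moved together on Hira-null replicate 3. Values of the 1 protein-coding gene between Lefty2 and Lefty1 are not given here. The protein-coding genes on either side of the pair, chosen after their values were seen, did not share the drop on Hira-null replicate 3. Sde2 read 8.84, 8.51 and 8.83 in Hira-null arrays and 8.34, 8.80 and 8.44 in WT arrays. Tmem63a read 6.57, 6.65 and 6.59 in Hira-null arrays and 7.17, 6.69 and 6.87 in WT arrays, so it was lower without overlap in all 3 Hira-null arrays, by a difference of -0.31 (limma adjusted p = 0.569).

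Among the ligands, Nodal had somewhat higher values in the Hira-null arrays and Gdf3 lower ones, and the lines overlapped for both. Nodal read 8.25, 7.91 and 7.72 in Hira-null arrays and 7.26, 7.98 and 7.69 in WT arrays. The low array was WT replicate 1. The means were 7.96 ± 0.27 in Hira-null arrays and 7.64 ± 0.36 in WT arrays (SD, n = 3 each), and the difference was 0.32 (SE 0.23, 95% interval -0.22 to 0.85, limma adjusted p = 0.718). It was 0.44 without Hira-null replicate 3 and 0.12 without WT replicate 1.

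Gdf3 encodes a TGF-beta family ligand that signals through the same receptors and also restrains BMP signals in ES cells. It read 9.29, 9.05 and 8.08 in Hira-null arrays and 8.87, 9.41 and 9.11 in WT arrays. Hira-null replicates 1 and 2 lay within the WT range and replicate 3 below it. The means were 8.81 ± 0.64 in Hira-null arrays and 9.13 ± 0.27 in WT arrays (SD, n = 3 each), a difference of -0.32 (SE 0.32, 95% interval -1.09 to 0.44, limma adjusted p = 0.823) that became 0.04 without Hira-null replicate 3. Gdf3 lies on chromosome 6 between Apobec1, an RNA-editing enzyme gene, and Dppa3, which encodes the germ cell factor Stella, with Nanog and the glucose transporter gene Slc2a3 after them. The Dppa3 probe set with the higher mean read 4.83, 4.93 and 4.53 in Hira-null arrays and 6.83, 6.67 and 6.60 in WT arrays, a difference of -1.94 (limma adjusted p = 0.0526), and its other probe set stood at -2.30 and was the 1 probe set of the whole table that passed (limma adjusted p = 0.0217). Its neighbour Gdf3 did not show this in Hira-null replicates 1 and 2. Apobec1 stood at -0.59 (limma adjusted p = 0.506), Nanog at 0.05 (limma adjusted p = 0.953) and Slc2a3 at 0.41 (limma adjusted p = 0.548).

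Tdgf1 encodes Cripto, a membrane-anchored coreceptor with which Nodal engages its receptors. It read 11.86, 11.86 and 11.17 in Hira-null arrays and 11.54, 11.61 and 11.78 in WT arrays. Hira-null replicates 1 and 2 were above every WT array and replicate 3 below every one. The means were therefore nearly equal, at 11.63 ± 0.40 in Hira-null arrays and 11.64 ± 0.12 in WT arrays (SD, n = 3 each), and the difference was -0.01 (SE 0.21, 95% interval -0.52 to 0.49, limma adjusted p = 0.995). Without Hira-null replicate 3 it turned to 0.22, which did not pass either (limma adjusted p = 0.652). The gene table also lists the pseudogenes Tdgf1-ps1 on chromosome 16 and Tdgf1-ps2 on chromosome 17, whose share of the signal was not examined.

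Acvr2b encodes a type II activin receptor, which binds ligand and activates the type I receptor. It read 7.30, 7.05 and 7.32 in Hira-null arrays and 7.19, 7.12 and 6.87 in WT arrays. No array stood apart, Hira-null replicate 3 included. The means were 7.22 ± 0.15 in Hira-null arrays and 7.06 ± 0.17 in WT arrays (SD, n = 3 each), and the difference of 0.16 (SE 0.15, 95% interval -0.18 to 0.51) did not pass (limma adjusted p = 0.793).

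Smad7 encodes the inhibitory SMAD that binds activated type I receptors and is itself induced by TGF-beta family signals. It read 9.00, 8.59 and 8.04 in Hira-null arrays and 7.99, 8.43 and 7.87 in WT arrays. Hira-null replicates 1 and 2 were above all WT arrays, and replicate 3 was among them. The means were 8.54 ± 0.48 in Hira-null arrays and 8.10 ± 0.29 in WT arrays (SD, n = 3 each), a difference of 0.45 (SE 0.27, 95% interval -0.19 to 1.09, limma adjusted p = 0.653), or 1.36-fold higher. Without Hira-null replicate 3 it was 0.70, or 1.62-fold higher (limma adjusted p = 0.415), and without Hira-null replicate 1 it was 0.22 (limma adjusted p = 0.812). With Hira-null replicate 3 left out, Smad7 and Tdgf1 were the 2 of 9 genes with higher levels without overlap, where the share over all probe sets was 13.3%.

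The antagonists Cer1 and Fst gave low values with small differences. Cer1 encodes Cerberus-like, a secreted binder of Nodal and BMP ligands known from the anterior visceral endoderm. It read 4.05, 3.95 and 3.95 in Hira-null arrays and 4.12, 4.13 and 3.71 in WT arrays, close to the filter's threshold of 3.78. The means were 3.98 ± 0.06 in Hira-null arrays and 3.99 ± 0.24 in WT arrays (SD, n = 3 each), with a difference of 0.00 (95% interval -0.37 to 0.36, limma adjusted p = 0.997). At values this near the threshold a difference in transcript level may not be seen. Fst encodes follistatin, which binds activins and keeps them from their receptors. It read 5.09, 5.10 and 5.37 in Hira-null arrays and 4.72, 5.39 and 5.18 in WT arrays. Its means were 5.19 ± 0.16 in Hira-null arrays and 5.10 ± 0.34 in WT arrays (SD, n = 3 each), a difference of 0.09 (SE 0.20, 95% interval -0.38 to 0.56, limma adjusted p = 0.934) that was 0.00 without Hira-null replicate 3 and -0.10 without WT replicate 1.

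**Figure D3:**
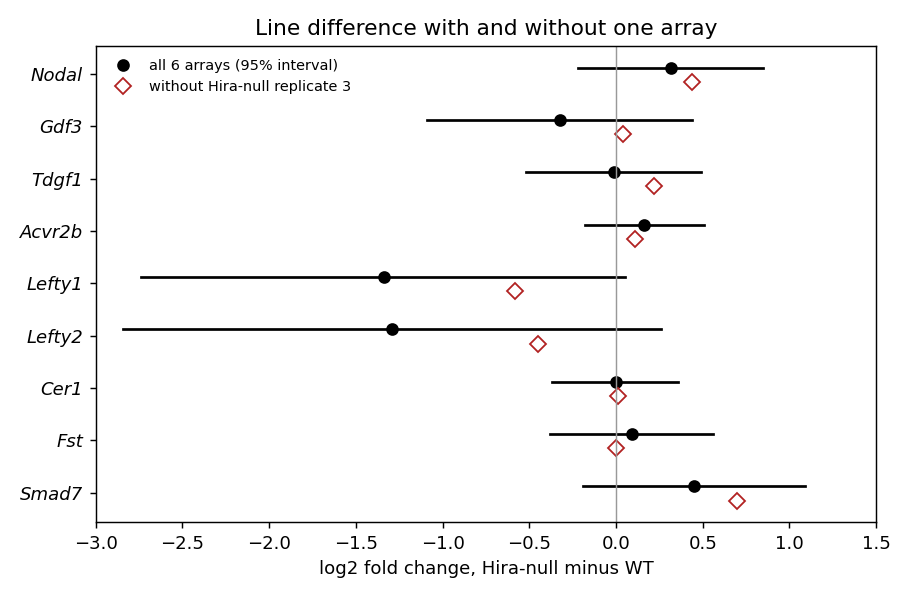
Log2 fold change, Hira-null minus WT, of the 9 genes over all 6 arrays (black points with 95% intervals from limma) and without Hira-null replicate 3 (open red diamonds, no interval drawn). All 9 intervals include 0. Lefty1 moves to -0.58 from -1.34 and Lefty2 to -0.45 from -1.29 when that array is left out.

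The rest of the pathway was described through 43 further genes, of which 40 had a probe set with 1 symbol and 38 passed the filter. None passed the test in either direction (limma, lowest adjusted p = 0.372), and 2 of 38 had an unadjusted p under 0.05. Their median difference was 0.06, against -0.01 over 15199 genes, with 23 positive and 15 negative differences. Hira-null replicate 3 was the lowest array for 5 of 38 genes.

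Of the other ligands, Inhbb, the activin B subunit gene, was ordered like Tdgf1, with Hira-null replicates 1 and 2 above every WT array and replicate 3 below every one. It read 6.89, 6.81 and 5.51 in Hira-null arrays and 5.61, 6.33 and 6.22 in WT arrays, a difference of 0.35 that was 0.80 without Hira-null replicate 3. Inhba (-0.03) and Gdf11 (0.06) differed little, Mstn was below the filter, and Gdf1 had no probe set with 1 symbol. Among the convertases, proteases that cut Nodal's precursor, Pcsk6 was higher without overlap. It read 7.54, 7.43 and 7.76 in Hira-null arrays and 7.23, 7.27 and 7.32 in WT arrays, a difference of 0.30 (SE 0.13, limma adjusted p = 0.507), and 7.09% of all probe sets were higher without overlap. Furin stood at -0.04 and Pcsk5 at -0.15.

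Of the receptors, Acvr1b, the type I receptor of Nodal, stood at 0.45 (SE 0.32, limma adjusted p = 0.719) and Acvr2a at 0.00. The TGF-beta receptor genes Tgfbr1 and Tgfbr2 stood at 0.26 and -0.27, and Cfc1, the second coreceptor of Cripto's family, at 0.12. Acvr1c was below the filter. Among the transducers, Smad2 (-0.03), Smad4 (0.11), Trim33 (0.07) and the receptor anchor Zfyve9 (-0.03) differed by little. Smad3 stood at -0.48 (SE 0.35, limma adjusted p = 0.733) and was highest in WT replicate 1, at 7.21. Foxh1, the DNA-binding partner of the SMADs, read 6.46, 6.48 and 7.14 in Hira-null arrays and 6.54, 6.33 and 6.74 in WT arrays. It was highest on Hira-null replicate 3, and its relation to the Lefty levels was not tested.

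Of 15 inhibitors, Smurf2 had the smallest p. This ubiquitin ligase gene lies on chromosome 11 and read 7.72, 7.50 and 7.71 in Hira-null arrays and 8.51, 7.96 and 8.11 in WT arrays, a difference of -0.55 (SE 0.17, limma adjusted p = 0.372), with -0.48 at its other probe set. The pseudoreceptor gene Bambi stood at 0.30, Ldlrad4 at 0.45, Dact2 at 0.33 and Pmepa1 at 0.35, and the corepressor gene Ski at -0.17, with limma adjusted p from 0.476 to 0.726. Without overlap, 1 of the 15 was higher in Hira-null arrays (Bambi) and 1 lower (Smurf2), against 7.09% and 8.17% of all probe sets. Ldlrad4, Dact2, Pmepa1 and Ski overlapped.

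Of the targets, Otx2, a homeobox gene of the epiblast and forebrain, read 8.24, 8.14 and 5.86 in Hira-null arrays and 6.21, 7.99 and 8.23 in WT arrays. It was low in 1 array of each line, Hira-null replicate 3 and WT replicate 1, and its difference was -0.06 (SE 0.77, limma adjusted p = 0.992). Eomes, a T-box gene of the primitive streak, read 5.82, 5.74 and 4.92 in Hira-null arrays and 4.77, 5.04 and 5.53 in WT arrays, a difference of 0.38 (limma adjusted p = 0.750). Its lowest values were in WT replicate 1, Hira-null replicate 3 and WT replicate 2, and Otx2 was not low in the last of these. In WT replicate 1, where Otx2 was low, Lefty1 had its highest WT value (8.07) and Lefty2 its lowest (7.84). Mixl1 (0.10), Gsc (0.06), Foxa2 (0.02) and Lhx1 (-0.07) differed by 0.10 or less, and T had no probe set with 1 symbol.

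**Figure D4:**
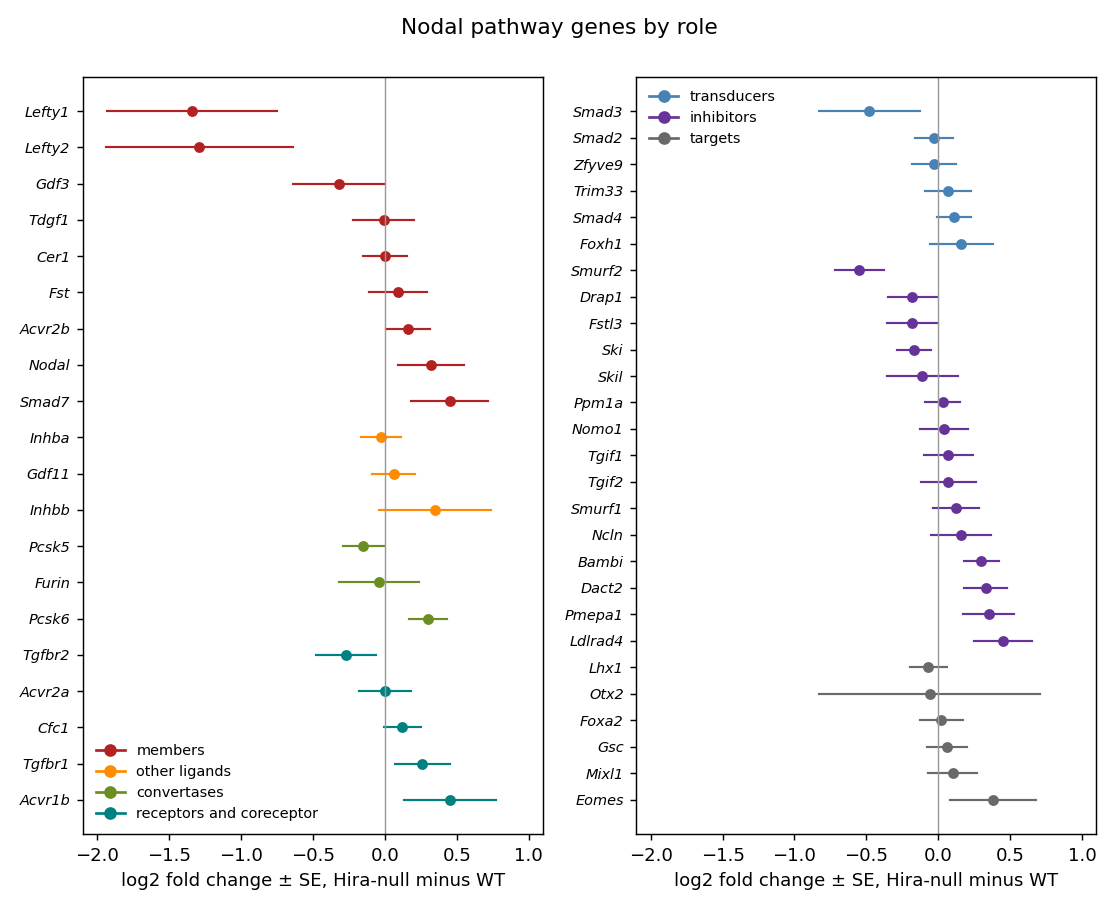
Log2 fold change, Hira-null minus WT, with its SE (bars) for the 9 members and 38 further Nodal pathway genes, coloured by role. Lefty1 (-1.34) and Lefty2 (-1.29) lie furthest from 0, and the 38 further genes lie between -0.55 (Smurf2) and 0.45.

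As a description over the 6 arrays, the genes whose levels ran most closely with Lefty1 by Pearson's r were Recql5 (0.998), Jpt1 (0.995), Fdps (0.995), Afg3l2 (0.995) and Kpna2 (0.994). Recql5, Jpt1 and Kpna2 lie on chromosome 11, Fdps on chromosome 3 and Afg3l2 on chromosome 18. The share of chromosome 11 among all genes was not counted. Each of the 5 was lowest in Hira-null replicate 3, at 5.67 for Recql5 against 6.20 to 6.43 in the other arrays, for example, and at 7.85 for the sterol pathway gene Fdps against 8.91 to 9.32. In all, 494 genes (3.25% of 15199) had an r above 0.9 with Lefty1. For Nodal the closest were Ttc30a1 (0.991), Cdc37l1 (0.991), Ndufaf4 (0.990), Coq4 (0.990) and Akirin1 (0.990), and 226 genes (1.49%) had an r above 0.9. All these values share the same 6 arrays and their normalization.

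The ES cell markers, which check the label of the cells, were measured on every array. Among them, Dppa5a, Pou5f1 and Nanog averaged 12.27, 11.50 and 10.94 in Hira-null arrays and 12.09, 11.23 and 10.89 in WT arrays, and all 9 markers passed the filter. Their summed log2 values were 92.9, 92.0 and 89.4 in Hira-null arrays and 90.8, 91.5 and 91.3 in WT arrays, so the sum was lowest on Hira-null replicate 3, where the Lefty genes were lowest. On that array 4 of the 9 ES cell markers had their lowest value, as did 25.7% of all probe sets. Among the 4 were Utf1 (9.27), Sox2 (9.44) and Zfp42 (8.98). Esrrb had its highest value there (9.96), and Fgf4 read 9.10 both there and in WT replicate 1, above the other arrays. The part of the ES cell markers in the Lefty difference was not tested. Cer1 and Lefty1 are also made by visceral endoderm, and Fst by fibroblasts, so these cell types were followed as well. Of 12 endoderm markers 10 passed the filter, with summed log2 values of 53.1 to 56.5 in Hira-null arrays and 57.3 to 60.9 in WT arrays, and Afp and Ttr stayed below it. Of these 10, 9 had negative differences, the smallest of them 0.00, and 1 a positive one. Their median was -0.23, against 0.00 over all probe sets. Lower in Hira-null arrays without overlap were 3, as were 8.17% of all probe sets, and the others overlapped. The 3 were Cubn (-1.48), Dab2 (-0.83) and Gata6 (-0.55), and none passed (limma adjusted p from 0.220 to 0.472). The other Dab2 probe set, below the filter, stood at 0.02. On Hira-null replicate 3, where the Lefty genes were lowest, the endoderm sum was the highest of the Hira-null arrays, at 56.5. Of 10 fibroblast markers 7 passed, with sums of 44.3 to 47.4 in Hira-null arrays and 46.2 to 50.1 in WT arrays, and Postn, Lum and Dcn were below the filter. Of these 7, 5 had negative differences, among them Vim (-0.61), Ccn2 (-0.99) and Col1a1 (-0.39). Lower without overlap were 3, namely Vim, Col1a2 (-0.72) and Twist2 (-0.40), against 8.17% of all probe sets. Only Thy1 was higher without overlap, at 0.76 (limma adjusted p = 0.285), against 7.09% of all probe sets. None of the 7 passed the test. Of 8 streak and mesoderm markers 7 passed, with sums of 34.0 to 35.0 in Hira-null arrays and 33.6 to 34.9 in WT arrays, and 4 had positive and 3 negative differences, from -0.31 (Kdr) and -0.29 (Wnt3) to 0.06 (Gsc), 0.09 (Fgf8) and 0.38 (Eomes). Utf1, Zfp42, Esrrb, Fgf4, Thy1, Col1a2, Twist2, Kdr and Wnt3 are named here after their values were seen. The part of endoderm cells in the Lefty difference was not tested.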

How the data were processed

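The deposited table holds log2 values for 35557 probe sets on 6 arrays, which the authors made with GCRMA (a background correction with quantile normalization) per the submitters' processing notes. No version is named, and values of 1.14 to 14.03 show the log2 scale. Such normalization hides a shift common to most genes. The build and annotation used by the authors are not given in the sources used, and raw signals were not analysed here. The platform's probe table gave 1 symbol to 21789 probe sets, and symbols were updated by Entrez identifier with a gene table of GRCm38.p6 (21698 matched). Probe sets with at least 3 of 6 arrays above 3.78, the 30th percentile, were tested (25142). Hira-null minus WT was fitted with limma 3.58.1 (R 4.3.3, lmFit and eBayes, no covariates). Its two-sided p-values were adjusted by Benjamini and Hochberg's method over all 25142, and 0.05 was the threshold. Other genes are represented by their probe set with the highest mean.

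One gene of the target list is not reported here. The members and lists were chosen with earlier results of these data known. Named are all members, Hira, every measured gene of the ligand, receptor, convertase, transducer, target and Gdf3 neighbour lists, the 6 inhibitors of smallest p, the 3 markers of highest mean per list and 5 genes by likeness to Lefty1 and to Nodal.  The number of arrays limits the precision (median SE 0.17). Alternatives were other filters, normalizations, eBayes settings, array weights, the replicate block and leaving out arrays.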

Additional observations from a re-analysis of the deposited data

How the results depend on the processing

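No member passed under any alternative run, and the lines' direction held for Nodal, Lefty1, Lefty2, Smad7 and Acvr2b throughout, with Lefty1 between -1.76 and -0.52 and Lefty2 between -1.75 and -0.45. With arrayWeights Lefty1 was at -0.85 and Lefty2 at -0.79. The direction turned for Tdgf1 with arrayWeights (0.08), with both Hira-null replicate 3 and WT replicate 1 left out (0.17) and over single arrays left out (-0.13 to 0.22). It turned for Gdf3 over single arrays left out (-0.56 to 0.04), and for Fst with arrayWeights (-0.03), without both those arrays (-0.19) and over single arrays left out (-0.10 to 0.24). Cer1, at 0.00, has no direction, and it was not tested under the stricter filter, which it did not pass. The count of probe sets called lower over the whole table was 1, and it was 2 with the stricter filter, 2 with median centring, 5 with arrayWeights, 0 with the replicate block, 0 without both those arrays and 0 to 41 with single arrays left out, with 41 without Hira-null replicate 2. The numbers do not pair the arrays (correlations of same-numbered deviations of -0.34, 0.17 and -0.10), and under the block Lefty1 stood at an adjusted p of 0.556 in limma. Differently numbered arrays gave correlations from -0.41 (Hira-null replicate 3 with WT replicate 2) to 0.44 (Hira-null replicate 3 with WT replicate 1). Each member has 1 probe set, so averaging probe sets changed nothing. The cause of these shifts was not tested.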
